A study of Mus musculus with 4 samples.

Results

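The BCL2 family and the inhibitor of apoptosis proteins (IAPs) set how readily a cell dies. The genes described here are 10 of the 21027 genes counted in both captures, chosen by name with earlier results of these data known. Bcl2, Bcl2l1 (BCL-XL), Mcl1, Bcl2a1b and Bcl2a1d encode anti-apoptotic proteins, which hold the mitochondrial outer membrane closed. Bcl2l11 (BIM) and Bbc3 (PUMA) encode BH3-only proteins, which bind and neutralise the anti-apoptotic proteins, and Bax encodes an effector that opens the membrane. Birc2 (cIAP1) and Birc3 (cIAP2) encode ubiquitin ligases that act at the TNF receptor and in NF-kB signalling. In mice, IL-7 signalling maintains BCL2 in innate and adaptive lymphocytes, plasma cells depend on MCL1, BIM drives the death of many lymphocytes, and the Bcl2a1 genes are NF-kB targets.

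The data were single-cell RNA counts from the BD Rhapsody system, in which each molecule carries a unique molecular identifier (UMI). Group 3 innate lymphoid cells (ILC3s) had been sorted from the lamina propria of the small intestine. The mice were Cxxc1flox/flox with a cre transgene and 6 to 8 weeks old. Both replicates carry this genotype, so no sample of another genotype was compared. The titles call the ILC3s Cxxc1-deficient, and whether the other sorted cells had lost the gene was not tested. The 4 sequenced libraries are 2 replicates with 2 libraries each, and each replicate is 1 sample tag in its own capture. The labels do not say whether the replicates are separate mice or pools. With replicate as a block, p-values rest on how differences between cell groups varied between these 2 samples, and on spread shared across genes. That variation may be technical.

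The sorted cells were mixed, and cells with the markers of other types were a large part of them. Of 1906 cells in replicate 1 and 4179 in replicate 2, T-gated cells numbered 288 and 1864, plasma-gated cells 316 and 16, stromal-gated cells 297 and 143, and myeloid-gated cells 82 and 32. The myeloid class held 50 dendritic-gated and 18 macrophage-gated cells in replicate 1, but 5 and 27 in replicate 2. Cells with ILC3 markers and few markers of other types were split by the transcripts of the receptors NKp46 (Ncr1) and CCR6. Ncr1-gated cells, which have Ncr1 and no Ccr6, numbered 74 and 138. Ccr6-gated cells, which have the reverse and include lymphoid tissue inducer-like cells, numbered 50 and 149, and cells with neither transcript 401 and 1024. A transcript present in a cell can be missed, so these neither-gated cells may include cells of both other subsets, which was not tested. No class was given to 398 and 809 cells.

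The sums of UMIs behind the T, plasma, stromal and myeloid classes ran from 55636 (plasma-gated, replicate 2) to 4177604 (T-gated, replicate 2). Levels are given as CPM, on which the UMIs of a class sum to 1000000 with immunoglobulin genes left out, and intervals cover counting error only. UMIs of a type's markers were also found at low levels in other classes: the summed level of the stromal panel in the other classes and subsets was 0.25% to 1.5% of that in stromal-gated cells. The T panel in plasma-gated cells stood at 7.92% and 12% of its level in T-gated cells, and most of this was Cd28, at 293 and 449 CPM, while Cd3e stood at 3.74 and 0 CPM. Cxxc1 had 12 and 30 UMIs in Ncr1-gated cells (42.2 and 69.9 CPM) and 6 and 17 in Ccr6-gated cells (25.7 and 31.6 CPM). It stood at 48.2 and 47.3 CPM in neither-gated, 91.7 and 76.4 CPM in T-gated and 131 and 89.9 CPM in plasma-gated cells. Stromal-gated cells had 65.4 and 51.3 CPM and myeloid-gated cells 40.7 and 65.1 CPM. The labels do not say which exons are deleted, so these counts do not check the deletion in any class.

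The mouse Bcl2a1 genes are near-identical copies on chromosome 9, and are printed here because so little separates them. In GENCODE on build GRCm38, Bcl2a1b (ENSMUSG00000089929.1) lies at chr9:89199209-89207827 on the plus strand and Bcl2a1d (ENSMUSG00000099974.1) at chr9:88723285-88731914 on the minus strand. Another copy, Bcl2a1a (chr9:88956900-88962419, plus strand), is not among the 10 genes and is given beside them. The stretch just before the Bcl2a1d start and the stretches of the other copies that align with it, which end short of their own annotated starts, are printed 5′ to 3′ on the gene's strand, from RefSeq promoter windows of GRCm38.p6. Capitals mark bases that differ from the Bcl2a1d stretch or are inserted against it.
Bcl2a1d (chr9:88731915-88732044, minus strand): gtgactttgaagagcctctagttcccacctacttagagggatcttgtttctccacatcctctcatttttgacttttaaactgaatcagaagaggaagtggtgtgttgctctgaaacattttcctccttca
Bcl2a1a (chr9:88956720-88956855, plus strand): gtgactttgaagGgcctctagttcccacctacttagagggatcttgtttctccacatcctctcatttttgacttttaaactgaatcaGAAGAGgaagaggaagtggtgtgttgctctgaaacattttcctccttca
Bcl2a1b (chr9:89199029-89199164, plus strand): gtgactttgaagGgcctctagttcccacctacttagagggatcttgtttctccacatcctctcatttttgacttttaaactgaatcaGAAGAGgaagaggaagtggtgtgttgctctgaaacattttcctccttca

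Bcl2a1a and Bcl2a1b each kept 129 of the 130 Bcl2a1d bases, with the same single difference and the same insert. All 3 stretches hold the letters GAGGAAGT on the gene's strand, a string chosen after the sequences were seen. On either strand, 1052 of 32851 RefSeq windows of 300 bases (3.20%) hold these letters. The 10 genes have 16 windows, and the 2 that hold the letters are those of Bcl2a1b and Bcl2a1d. The transcripts of Bcl2a1b and Bcl2a1d were 99.1% identical, and 99.3% over the aligned part of their last 300 bases. The split of UMIs among the copies is therefore uncertain, and every value for a single copy below carries that limit.

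Bcl2 and Bcl2l11 ran in opposite directions between the ILC3 subsets. Bcl2, the founding anti-apoptotic gene of the family (ENSMUSG00000057329.7, chr1:106538178-106714274, minus strand), stood at 526 and 649.6 CPM in Ccr6-gated, 411 and 454 CPM in neither-gated and 319.8 and 342 CPM in Ncr1-gated cells, with no overlap among the 3 subsets. The log2 fold change of Ncr1-gated over Ccr6-gated cells was -0.86 (SE 0.14, edgeR adjusted p = 8.2e-05), a 1.82-fold difference.

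Bcl2l11, which encodes the BH3-only protein BIM (ENSMUSG00000027381.16, chr2:128126038-128162547, plus strand), had the reverse order. It stood at 144 and 105 CPM in Ncr1-gated, 75.7 and 68.2 CPM in neither-gated and 25.7 and 48.3 CPM in Ccr6-gated cells (6 and 26 UMIs), again with no overlap. The log2 fold change of Ncr1-gated over Ccr6-gated cells was 1.54 (SE 0.32, edgeR adjusted p = 0.00144), a 2.90-fold difference. These were 2 of the 8 genes tested in edgeR's quasi-likelihood test on summed counts, where 6.79% of all 6612 genes tested passed, 3.27% higher in Ncr1-gated and 3.52% higher in Ccr6-gated cells. The median log2 fold change was 0.08 over the 8 genes and -0.0061 over all genes tested. Both calls held with DESeq2, without the replicate block, with the wider CCR6 gate, with classes from clusters and in cells without a T panel UMI. With cells thinned and gated again, which left 15 and 37 Ncr1-gated and 12 and 48 Ccr6-gated cells, Bcl2 kept its direction but did not pass (-0.84, edgeR adjusted p = 0.46) and Bcl2l11 was below the count filter.

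The number of Bcl2 UMIs per Bcl2l11 UMI puts both genes together, and it needs no library total. It joins the genes that passed in opposite directions, so between the subsets it restates those calls and adds no evidence. It was 20.5 (95% counting interval 9.15 to 56.9) and 13.5 (9.03 to 20.9) in Ccr6-gated cells, and 2.22 (1.52 to 3.29) and 3.27 (2.32 to 4.67) in Ncr1-gated cells. Neither-gated cells, which may include cells of both other subsets, lay between, at 5.42 and 6.66. T-gated cells had 0.477 and 1.26, myeloid-gated cells 0.173 and 0.308, plasma-gated cells 0.708 and 0.25 (the last from 1 and 4 UMIs), and stromal-gated cells 4.32 and 6.83. The T-gated intervals (0.357 to 0.634 and 1.10 to 1.43) did not overlap between replicates, so counting intervals understate the spread. The transcripts differ in length and capture, so the ratio is read across classes and not against 1.

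**Figure D1:**
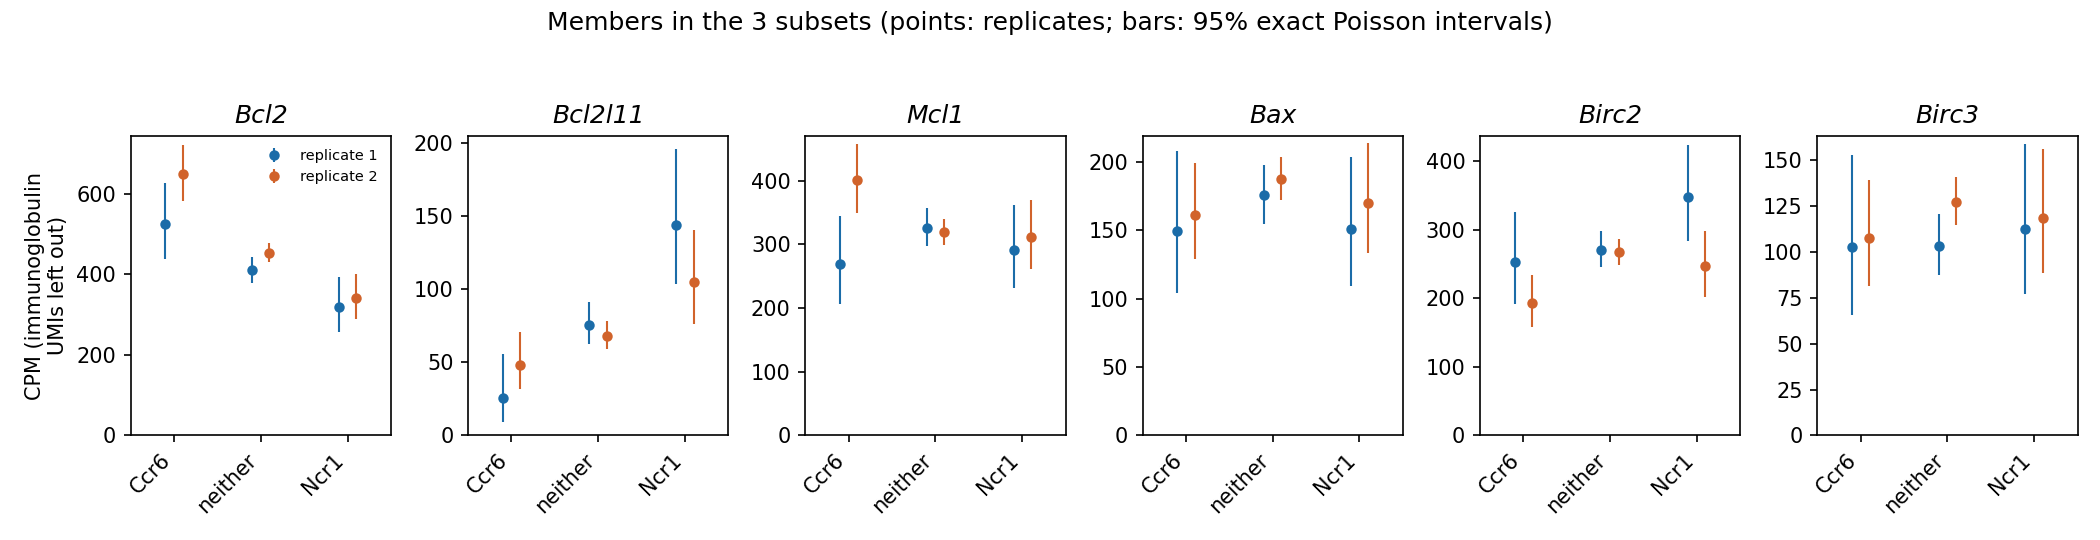
Level (CPM, immunoglobulin UMIs left out) of 6 of the genes in Ccr6-gated, neither-gated and Ncr1-gated ILC3s; points are the 2 replicates and bars are 95% exact Poisson intervals. Bcl2 falls from 526 and 649.6 to 319.8 and 342 CPM from left to right and Bcl2l11 rises from 25.7 and 48.3 to 144 and 105 CPM.

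The other 6 genes tested did not pass between the subsets. Mcl1 stood at 292 and 312 CPM in Ncr1-gated and 269.5 and 401 CPM in Ccr6-gated cells, which overlapped (log2 fold change -0.22, SE 0.17, edgeR adjusted p = 0.578). Bax stood at 151 and 170.0 against 149.7 and 161 CPM, Birc3 at 112 and 119 against 103 and 108 CPM and Bcl2l1 at 45.7 and 21.0 against 34.2 and 37.1 CPM. Birc2 stood at 348 and 247 against 252 and 193 CPM (0.40, SE 0.18, edgeR adjusted p = 0.236). Bcl2a1d stood at 52.7 and 93.2 against 25.7 and 52.0 CPM and did not pass (0.83, SE 0.34, edgeR adjusted p = 0.174), although it passed with classes from clusters (1.71, edgeR adjusted p = 0.0011). Bcl2a1b, with 12 against 9 UMIs, and Bbc3, with 9 against 4 UMIs, were too low to be tested.

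Shares of cells had the same order as the levels for Bcl2 in both replicates. With 1000 UMIs per cell it was found in 44.0% and 49.3% of Ccr6-gated, 29.9% and 32.1% of neither-gated and 21.6% and 28.5% of Ncr1-gated cells, against 80.0% and 81.9%, 63.6% and 60.4%, and 54.1% and 50.7% unthinned. Bcl2l11 was found in 6.00% and 4.05% of thinned Ccr6-gated (3 and 6 cells), 6.73% and 6.39% of thinned neither-gated and 10.8% and 12.4% of thinned Ncr1-gated cells (8 and 17 cells). The Ccr6-gated and neither-gated shares lay close together in replicate 1. Stromal-gated cells, with the lowest Bcl2l11 level, gave 0.673% and 0.709%. Median depth was 4232 and 3418 UMIs in Ccr6-gated and 3528 and 2964.5 in Ncr1-gated cells. Markers of natural killer cells and ILC1s moved with this comparison: their summed level was 661 and 512 CPM in Ncr1-gated and 21.4 and 42.7 CPM in Ccr6-gated cells, with 4 of 7 at 0 in each Ncr1-gated replicate, Eomes included. Most of the Ncr1-gated sum was Gzma, at 559 and 415 CPM, against 0 and 11.1 CPM in Ccr6-gated cells. Tbx21 stood at 80.8 and 67.5 against 21.4 and 24.1 CPM. The Klra genes among those at 0 were at or near 0 in every class. The part of these markers in the result was not tested.

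**Figure D2:**
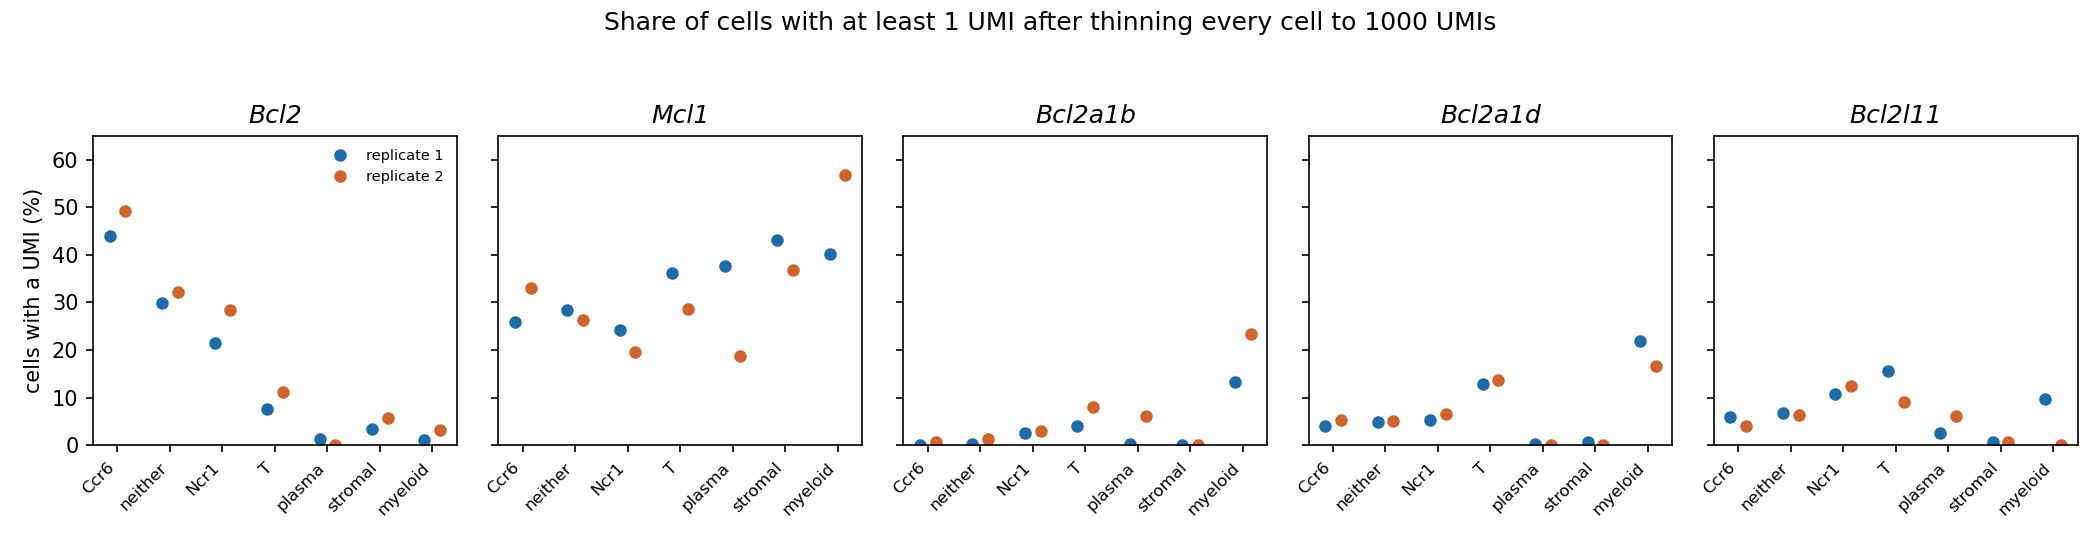
Share of cells (%) with at least 1 UMI of 5 of the genes after each cell was thinned to 1000 UMIs, in the 3 subsets and the T-gated, plasma-gated, stromal-gated and myeloid-gated cells; points are the 2 replicates. Bcl2 was found in 44.0% and 49.3% of Ccr6-gated and 21.6% and 28.5% of Ncr1-gated cells; immunoglobulin takes 47.2% and 56.3% of plasma-gated UMIs, so plasma-gated shares are lower than the CPM would give.

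Genes of related lists differed between the subsets as well. Tnfrsf1a, the main TNF receptor, stood at 66.8 and 65.2 CPM in Ncr1-gated cells and had 0 and 4 UMIs in Ccr6-gated cells. Tnf, its ligand, was higher in Ccr6-gated cells (346.5 and 251 against 116 and 135 CPM, log2 fold change -1.20, SE 0.21, edgeR adjusted p = 1.5e-04). Gadd45a, a stress-induced gene, was higher in Ncr1-gated cells (1.35, SE 0.31), as was Il2rb, the shared IL-2 and IL-15 receptor chain (0.43, SE 0.11). Of 11 NF-kB genes tested, Nfkb1 (-0.46, SE 0.13) and Rel (-0.46, SE 0.14) were among 3 higher in Ccr6-gated cells, and Traf1 (0.52, SE 0.16) was higher in Ncr1-gated cells. The 3 other BH3-only genes tested and the 4 other IAPs and antagonists tested did not pass. Early response genes moved with the subsets too, with Atf3 (-0.99, SE 0.13) and Egr1 (-0.88, SE 0.12) among 3 of 11 higher in Ccr6-gated cells and Dusp1 (0.51, SE 0.12) higher in Ncr1-gated cells. Their part in the Bcl2 and Bcl2l11 values was not tested.

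The T-gated, plasma-gated, stromal-gated and myeloid-gated cells of the sort differed in which of the 10 genes stood high. Bcl2, Bcl2l1, Bcl2l11, Bax, Birc2 and Birc3 had their highest mean in T-gated cells, Mcl1 and Bbc3 in plasma-gated cells, and Bcl2a1b and Bcl2a1d in myeloid-gated cells. No test was run among these classes, so their levels are a description, read by whether the replicates overlap. This reading does not use the pairing of classes within a replicate. Plasma-gated levels depend on the total used: immunoglobulin genes held 47.2% and 56.3% of their UMIs, and with these kept in the total Mcl1 had its highest mean in myeloid-gated cells. The order of plasma-gated cells below is that without immunoglobulin genes, and the levels with them are given beside it, apart from the Bcl2a1 copies, which had few plasma-gated UMIs.

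Bcl2 stood at 78.9 and 122 CPM in T-gated, 48.6 and 47.8 CPM in stromal-gated, 49.8 and 18.0 CPM in plasma-gated and 11.8 and 23.7 CPM in myeloid-gated cells. T-gated cells lay above the other classes, and the plasma-gated replicates overlapped those of both stromal-gated and myeloid-gated cells. With immunoglobulin genes kept, plasma-gated cells had 26.3 and 7.85 CPM, below stromal-gated cells. With every cell thinned to 1000 UMIs, Bcl2 was found in 7.64% and 11.2% of T-gated, 3.37% and 5.67% of stromal-gated and 1.22% and 3.33% of myeloid-gated cells, against 17.4% and 20.2% of T-gated and 29.3% and 21.0% of stromal-gated cells unthinned, and 9 of 82 and 4 of 32 myeloid-gated cells. Median depth before thinning was 2749 and 2095.5 UMIs in T-gated and 8410 and 5665 in stromal-gated cells. In replicate 2, thinning kept 1775 of 1864 T-gated, 141 of 143 stromal-gated and 30 of 32 myeloid-gated cells, and in replicate 1 all cells of these classes.

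**Figure D3:**
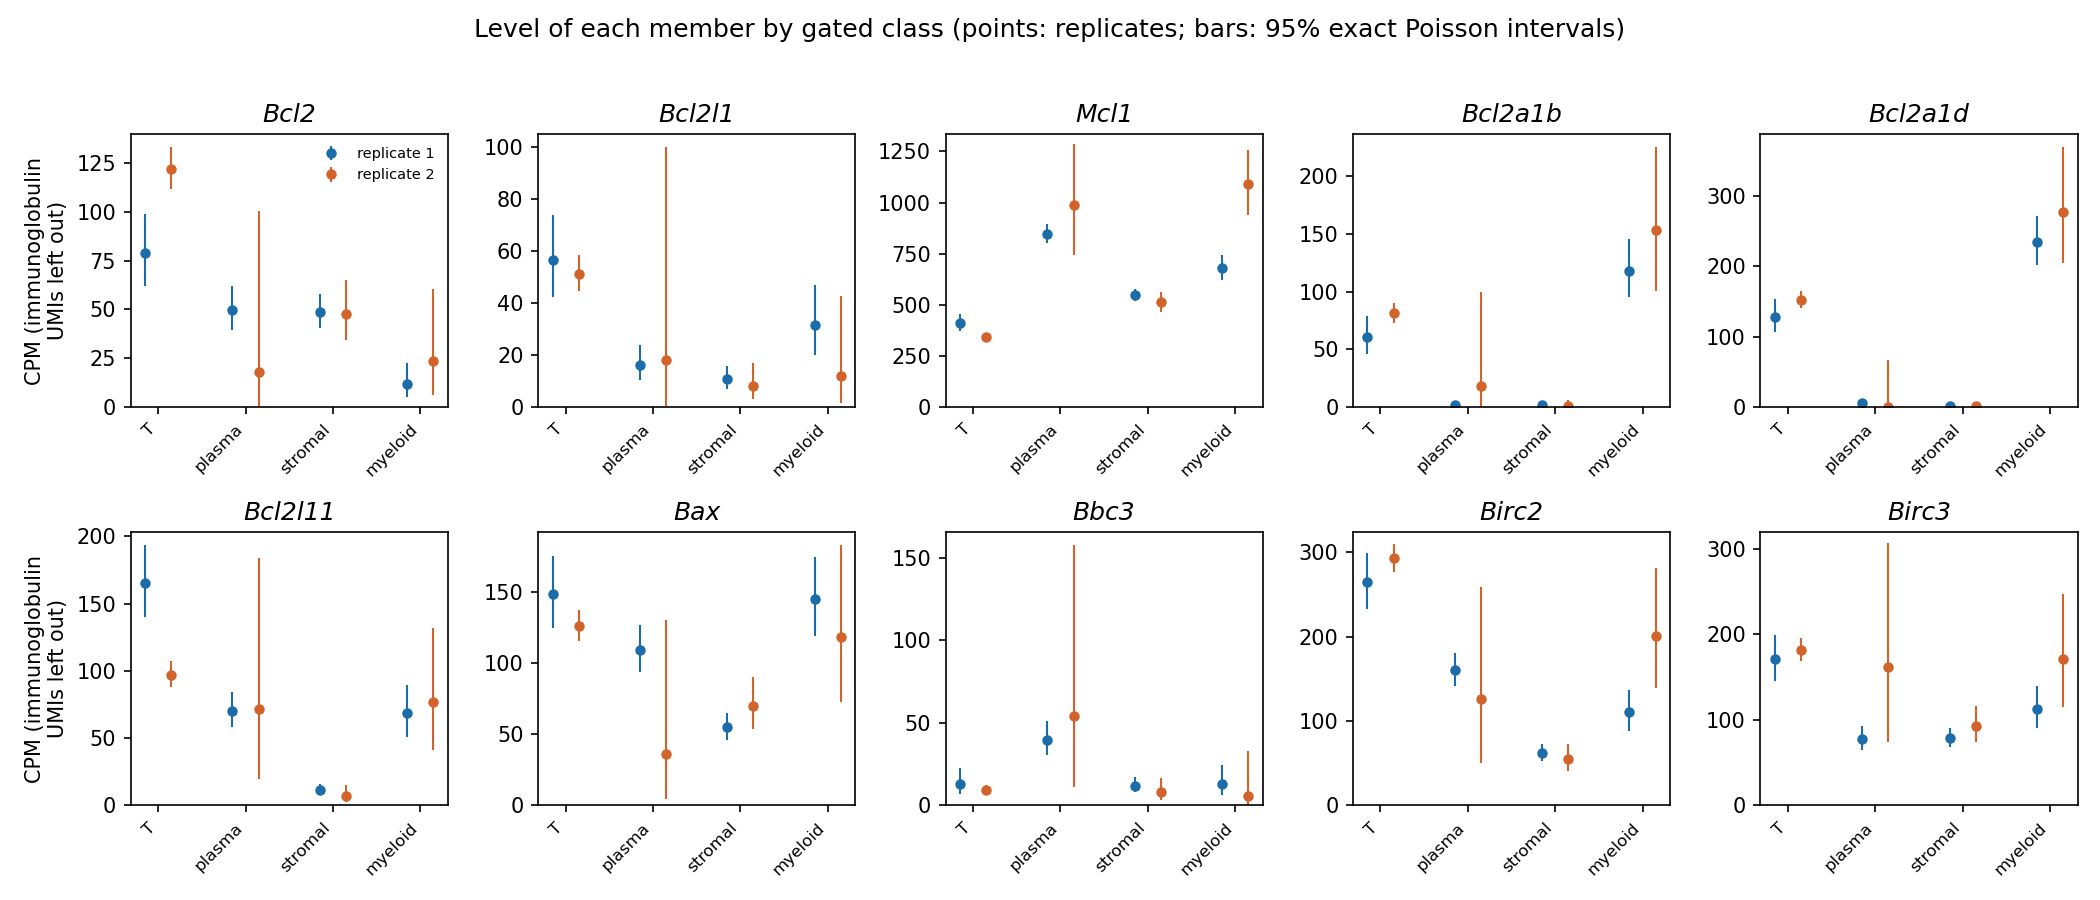
Level (CPM, immunoglobulin UMIs left out) of each of the 10 genes in T-gated, plasma-gated, stromal-gated and myeloid-gated cells; points are the 2 replicates and bars are 95% exact Poisson intervals. Bcl2a1d stood at 235 and 278 CPM in myeloid-gated and at 128 and 152 CPM in T-gated cells, and the wide plasma-gated bars are replicate 2, with 16 cells.

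Mcl1, the gene of a short-lived anti-apoptotic protein (ENSMUSG00000038612.16, chr3:95658788-95663176, plus strand), had another order than Bcl2. It stood at 847 and 989 CPM in plasma-gated, 681 and 1089 CPM in myeloid-gated, 548 and 514 CPM in stromal-gated and 411 and 343 CPM in T-gated cells. The plasma-gated and myeloid-gated replicates overlapped each other and lay above stromal-gated cells, which lay above T-gated cells. Within the myeloid class, whose mix differed between replicates, macrophage-gated cells had 821 and 1293 CPM. Dendritic-gated cells had 654 and 568 CPM, below the plasma-gated values. With immunoglobulin genes kept, plasma-gated cells had 447 and 432 CPM of Mcl1, below stromal-gated (543 and 514 CPM) and myeloid-gated cells (677 and 1087 CPM) and above T-gated cells (403 and 343 CPM). Pmaip1, which encodes NOXA, the BH3-only partner of MCL1, stood at 301 and 485 CPM in myeloid-gated, 122 and 126 CPM in T-gated, 79.7 and 144 CPM in plasma-gated and 3.21 and 3.50 CPM in stromal-gated cells. Myeloid-gated cells had the highest Pmaip1 values and stromal-gated cells the lowest, and the T-gated values lay between the plasma-gated ones. Plasma-gated Pmaip1 was 42.1 and 62.8 CPM with immunoglobulin genes kept, below T-gated cells.

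The Bcl2a1 copies, whose proteins are induced by NF-kB in activated leukocytes, were highest in myeloid-gated cells. Bcl2a1d stood at 235 and 278 CPM there and at 128 and 152 CPM in T-gated cells. Plasma-gated cells had 6.23 CPM and no UMI, with a 95% counting interval up to 66.3 CPM for the latter, and stromal-gated cells 1.20 and 1.17 CPM (3 and 1 UMIs). The replicates of myeloid-gated cells lay above those of T-gated cells, which lay above both other classes. Bcl2a1b stood at 118 and 154 CPM in myeloid-gated and 60.8 and 81.4 CPM in T-gated cells, with 3 and 1 UMIs in plasma-gated and 4 and 1 UMIs in stromal-gated cells, so its order was the same at the upper end.

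Bcl2a1a, the copy outside the 10 genes, had 246 and 331 CPM in myeloid-gated cells and 12.9 CPM or less in every replicate of the T-gated and stromal-gated cells. Plasma-gated cells had 4 UMIs of Bcl2a1a in replicate 1 and none in replicate 2. In replicate 2, T-gated cells had 81.4 CPM of Bcl2a1b and 152 CPM of Bcl2a1d but 12.9 CPM of Bcl2a1a, so the copies were not counted in 1 fixed ratio across classes. Thinned to 1000 UMIs, Bcl2a1d was found in 22.0% and 16.7% of myeloid-gated and 12.8% and 13.7% of T-gated cells. Stromal-gated cells, which should lack it, gave 0.673% and 0%. Among macrophage-gated cells alone, Bcl2a1d stood at 174 and 198 CPM and Bcl2a1b at 184 and 189 CPM, so the copies were about level there. In dendritic-gated cells, Bcl2a1d stood at 227 and 483 CPM and Bcl2a1b at 105 and 63.1 CPM (51 and 3 UMIs), so they were not level. The dendritic-gated Bcl2a1b values overlapped those of T-gated cells.

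Bcl2l1, which encodes BCL-XL (ENSMUSG00000007659.18, chr2:152780668-152831728, minus strand), was low in every class. It stood at 56.5 and 51.2 CPM in T-gated, 31.5 and 11.8 CPM in myeloid-gated, 16.2 and 18.0 CPM in plasma-gated and 10.8 and 8.16 CPM in stromal-gated cells. T-gated cells lay above all others, and the myeloid-gated replicates lay on either side of the plasma-gated ones. With immunoglobulin genes kept, plasma-gated cells had 8.55 and 7.85 CPM, below myeloid-gated cells and overlapping stromal-gated cells.

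Among the pro-apoptotic genes, Bcl2l11 stood at 165 and 97.2 CPM in T-gated, 70.4 and 71.9 CPM in plasma-gated, 68.3 and 76.9 CPM in myeloid-gated and 11.2 and 6.99 CPM in stromal-gated cells. T-gated cells were highest and stromal-gated cells lowest without overlap. With immunoglobulin genes kept, plasma-gated cells had 37.2 and 31.4 CPM, below myeloid-gated cells. In macrophage-gated cells Bcl2l11 stood at 155 and 90.6 CPM, which overlapped T-gated cells, and in dendritic-gated cells at 53.6 and 42.0 CPM. Bax (ENSMUSG00000003873.11, chr7:45461697-45466898, minus strand) stood at 148 and 126 CPM in T-gated, 145 and 118 CPM in myeloid-gated, 109 and 35.9 CPM in plasma-gated and 55.0 and 69.9 CPM in stromal-gated cells. The T-gated and myeloid-gated values overlapped, with T-gated cells slightly higher within each replicate, and the plasma-gated value in replicate 2 is 2 UMIs. Macrophage-gated cells had 174 and 124 CPM of Bax and dendritic-gated cells 155 and 105 CPM. Plasma-gated Bax was 57.6 and 15.7 CPM with immunoglobulin genes kept.

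Bbc3, a p53 target in mouse and human (ENSMUSG00000002083.13, chr7:16308393-16318205, plus strand), was highest in plasma-gated cells. These had 39.9 and 53.9 CPM (64 and 3 UMIs), while T-gated, stromal-gated and myeloid-gated cells ranged from 5.92 to 13.1 CPM and overlapped each other. Macrophage-gated cells alone had 38.6 and 8.24 CPM (4 and 1 UMIs), in replicate 1 close to the plasma-gated value. Plasma-gated cells had 21.1 and 23.6 CPM with immunoglobulin genes kept, still above the other classes. They were not highest with cells thinned and gated again, which left 99 and 2 plasma-gated cells. Mean Bbc3 was then 17.7 CPM in plasma-gated, 18.6 CPM in myeloid-gated, 17 CPM in stromal-gated and 14 CPM in T-gated cells. Tnfrsf17, the receptor BCMA of plasma cells, stood at 307 and 485 CPM in plasma-gated cells and had 4 UMIs or fewer in each replicate of the T-gated, stromal-gated and myeloid-gated cells.

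The IAP genes Birc2 and Birc3 lie 11.6 kb apart on chromosome 9 (chr9:7818227-7837064 and chr9:7848699-7873186, both minus strand). Without immunoglobulin genes, both had the same order of mean levels over these classes, but their replicates overlapped differently. Birc2 stood at 265 and 293 CPM in T-gated, 110.4 and 201 CPM in myeloid-gated, 160.1 and 126 CPM in plasma-gated and 62.2 and 54.8 CPM in stromal-gated cells. T-gated cells lay above and stromal-gated cells below the other classes. Within the myeloid class, dendritic-gated cells had 126 and 294 CPM of Birc2 (61 and 14 UMIs), which overlapped T-gated cells. Macrophage-gated cells had 145 and 165 CPM. With immunoglobulin genes kept, plasma-gated cells had 84.5 and 55.0 CPM and overlapped stromal-gated cells (61.7 and 54.8 CPM). Birc3, an NF-kB target, stood at 171 and 182 CPM in T-gated, 113 and 172 CPM in myeloid-gated, 77.9 and 162 CPM in plasma-gated and 78.7 and 93.2 CPM in stromal-gated cells, and each class overlapped its neighbour in that order. Within each replicate, Birc3 fell from T-gated to myeloid-gated to plasma-gated cells. Plasma-gated Birc3 was 41.1 and 70.7 CPM with immunoglobulin genes kept, below stromal-gated cells (78.0 and 93.2 CPM).

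Levels of a survival receptor and a death ligand also stood apart among these classes. Il7r, the IL-7 receptor, stood at 931 and 1412 CPM in T-gated, 52.6 and 166 CPM in myeloid-gated, 22.4 and 71.9 CPM in plasma-gated and 7.22 and 25.6 CPM in stromal-gated cells, with T-gated cells above the other classes of these 4. Among the subsets Il7r stood at 612 and 1103 CPM in Ccr6-gated and 583 and 785 CPM in Ncr1-gated cells. It was lower in Ncr1-gated cells within each replicate but did not pass (log2 fold change -0.35, SE 0.13, edgeR adjusted p = 0.101). Fasl, the ligand of the death receptor FAS, stood at 58.7 and 75.9 CPM in T-gated cells and had 3 UMIs or fewer in each replicate of the plasma-gated, stromal-gated and myeloid-gated cells. These genes were named after their values were seen, as were Pmaip1 and Tnfrsf17.

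The genes whose levels were most like each of the 10 over 14 sums (7 classes and subsets in 2 replicates) were looked up among 6517 genes with a mean of at least 20 CPM, by Pearson's r of log2(CPM + 1). The sums share libraries and replicates, so r is a description. Bcl2 was most like Tnfrsf25 (0.98), Il17re (0.97) and Cryaa (0.97), and Mcl1 most like Lims1 (0.94), Trim25 (0.93) and Agpat4 (0.91). Bcl2a1d was most like Tmsb4x (0.96), Ppp4c (0.96) and Lrmp (0.95), and Bcl2a1b most like Ms4a6b (0.92), Paxbp1 (0.88) and Actb (0.88). Bcl2l11 was most like Fgd3 (0.94), Mia2 (0.93) and Cdt1 (0.92), and Bbc3 most like Mzb1 (0.96), Pou2af1 (0.92) and Cd79a (0.92), of which Mzb1 and Pou2af1 are in the plasma panel. Bcl2l1 was most like Nono (0.92), Bax most like Coro2a (0.98), Birc2 most like Sf1 (0.97) and Birc3 most like Adora2a (0.94).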

How the data were processed

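The deposited tables hold UMI counts per cell and gene. Per the file headers they came from the BD WTA Multiplex Rhapsody Analysis Pipeline 1.8, run with GRCm38 and GENCODE vM19, and so did the sample tag calls, which are names and another kind of value than a count. HISAT2 2.0.5 and Bowtie2 stand in the submitters' processing notes with no role given. Replicate 1 is tag 4 (2077 of 8064 cells, 11939862 UMIs) and replicate 2 is tag 2 (4532 of 15793 cells, 12141164 UMIs), and cells with other tags were not analysed here. Cell numbers restart in each capture, and 7 are shared by both. Gene positions and transcripts come from a GENCODE release later than the authors' one.

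Kept cells had 300 genes or more and no more than 25% mitochondrial UMIs, and Scrublet (scanpy 1.11.5) removed 39 (2.01%) and 6 (0.143%). In replicate 2 this is too few to have worked, so doublets remain. Classes were gated by the number of detected panel genes: 2 of 5 (ILC3), 2 of 8 (T), 4 of 7 (plasma), 7 of 9 (stromal), 3 of 9 (macrophage) or 3 of 7 (dendritic), the last pair entering the myeloid class. A cell reaching another panel's bar (3 for ILC3) was left out. The bars were set after seeing how many panel genes cells had. Each of 21 Leiden clusters (leidenalg 0.10.2, built without the 10 genes) took the class held by most of its gated cells. In the 19 clusters with such a class, 97.4% of gated cells fell in it. This naming favours a high share, and the panel genes were open to the clustering, so it is no independent check of the gates. Most clusters came mainly from 1 replicate.

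UMIs were summed per replicate and class after 233 immunoglobulin genes were removed, which held 47.2% and 56.3% of plasma-gated UMIs, so this choice raises plasma-gated CPM values. The edgeR 4.0.16 quasi-likelihood test (R 4.3.3) was run on the subset sums with TMM, filterByExpr and replicate as a block, two-sided, Benjamini-Hochberg adjusted over all genes tested, at a threshold of 0.05. The pairing comes from the design: all classes of a replicate are cells of 1 tagged sample. The subset fit leaves 2 residual degrees of freedom beside 29.6 prior ones, so p-values lean on spread shared across genes. DESeq2 1.42.0 was an alternative.

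The 10 genes, the related lists and the markers were chosen with earlier results of these data known. Named genes are the 10, up to 2 genes per related list, comparison and direction with the largest change of the same sign in both replicates, and the 3 genes most like each of the 10. Bcl2a1a and Cxxc1 are given for context. Some planned comparisons between classes and some items are not reported here, and the related lists and most-alike genes were recomputed without them.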

Additional observations from a re-analysis of the deposited data

How the results depend on the processing

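Bcl2 and Bcl2l11, the genes of the 10 that passed between the subsets, kept their direction under every alternative with a test, with 22 of 23 alternative values on the same side of the threshold and 1 no longer past it. For the 6 genes not past the threshold, 62 of 68 values were unchanged in this sense, 1 passed and 5 changed sign. The number of genes called (449) was 161 with DESeq2, 171 with no replicate block, 40 with cells thinned and gated again and 283 with 1 more marker in the gate. Of the 10 genes, 0 of 3 tested passed with edgeR when thinned. Thinning leaves fewer UMIs and cells, and the cause of the other shifts was not tested. Signs changed, without passing, for Bcl2l1 from clusters (0.0907) and with the wider CCR6 gate (0.0227), for Bax from clusters (-0.105) and without T panel UMIs (-0.0639), and for Birc3 with 1 more marker (-0.215). With 1 replicate left out there is no test. Cells without a T panel UMI were chosen after seeing the data. The replicate block changed no call among the 10 genes. Plasma-gated values of replicate 2 rest on 16 cells. Keeping immunoglobulin genes in the totals lowered plasma-gated levels. By mean level, it changed the place of plasma-gated cells for Bcl2, Bcl2l1, Mcl1, Bax and Birc3. For the other genes of the 10 their place was the same, and Bbc3 stayed highest in plasma-gated cells. With cells thinned and gated again, Bbc3 no longer had its highest mean in plasma-gated cells. Bcl2a1d in myeloid-gated cells (112 and 189 CPM) then overlapped T-gated cells (128 and 155 CPM).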
